A study of Mus musculus with 9 samples.

Results

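The genes described here encode the proteasome, the barrel-shaped protease that degrades ubiquitin-tagged proteins. They were taken as all symbols of the deposited expression table that begin with Psm, a letter from a to g and a digit, which gave 49 of 23366 gene symbols. Of these, 5 are immunoproteasome genes (Psmb8, Psmb9, Psmb10, Psme1 and Psme2) and 44 are referred to as standard members. The symbol rule also took in Psmc3ip, a recombination factor that is not a proteasome subunit. The samples were 9 bulk libraries of CD8+ T cells isolated from B16F10 melanomas, a transplantable mouse tumour line, grown in C57BL/6 mice: 5 from WT mice and 4 from IL27ra KO mice, which lack a chain of the interleukin 27 receptor. Each library was made with an adapted SMART-Seq 2 protocol from lysates of on average 2000 cells. The labels do not give the age of the mice, the disrupted part of Il27ra, which cells lacked it, or whether each library came from its own animal, so the p-values describe only how these libraries spread, and part of that spread may be technical.

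The catalytic core of the proteasome, the 20S particle, is a stack of rings in which alpha subunits form the gate and beta subunits the cutting chamber. Only the products of Psmb5, Psmb6 and Psmb7 cut among the standard beta subunits. In cells of the immune system, and in most cells exposed to interferon gamma, newly built particles carry Psmb8 in place of Psmb5, Psmb9 in place of Psmb6 and Psmb10 in place of Psmb7. The resulting immunoproteasome favours peptides that fit MHC class I molecules. Psme1 and Psme2 encode PA28 alpha and beta, which form a cap that opens the gate and is induced by the same cytokine. The 19S particle, built from Psmc and Psmd products, recognises ubiquitin chains and unfolds substrates.

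The promoters of the catalytic pairs whose balance differed between the groups, as described further on, are shown to let the reader compare the immunoproteasome and standard forms. They come from RefSeq on build GRCm38.p6, whereas the submitters' processing notes name mm9 for the expression table, so they are matched to it by symbol only. Each window holds 250 bases before the annotated start, read 5′ to 3′ on the strand of the gene, and the one of Psmb9 was shortened to the 225 bases between its start and that of Tap1. Tap1 encodes a subunit of the peptide transporter of class I loading and is read in the opposite direction from the same stretch. Capitals mark matches, on either strand, to the interferon-stimulated response element core (GAAA repeated after a gap of any 2 bases), the gamma-activated site TTCNNNGAA, the antioxidant response element TGACNNNGC and the CCAAT box.
Psmb8, chr17:34197945-34198194, plus strand: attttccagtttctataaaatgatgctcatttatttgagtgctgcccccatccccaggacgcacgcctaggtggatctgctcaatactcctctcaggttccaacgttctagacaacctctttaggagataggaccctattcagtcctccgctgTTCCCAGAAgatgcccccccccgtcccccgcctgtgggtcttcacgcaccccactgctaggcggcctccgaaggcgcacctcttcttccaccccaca
Psmb5, chr14:54617996-54618245, minus strand: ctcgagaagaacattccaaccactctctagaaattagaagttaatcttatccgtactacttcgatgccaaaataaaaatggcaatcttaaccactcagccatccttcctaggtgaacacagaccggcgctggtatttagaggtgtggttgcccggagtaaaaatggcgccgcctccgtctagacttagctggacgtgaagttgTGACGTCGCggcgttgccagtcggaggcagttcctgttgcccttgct
Psmb9, chr17:34187331-34187555, minus strand: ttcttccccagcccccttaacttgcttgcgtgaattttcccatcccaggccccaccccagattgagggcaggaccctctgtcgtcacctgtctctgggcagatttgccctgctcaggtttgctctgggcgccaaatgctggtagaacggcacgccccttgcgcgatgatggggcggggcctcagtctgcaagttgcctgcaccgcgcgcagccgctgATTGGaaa
Psmb6, chr11:70525107-70525356, plus strand: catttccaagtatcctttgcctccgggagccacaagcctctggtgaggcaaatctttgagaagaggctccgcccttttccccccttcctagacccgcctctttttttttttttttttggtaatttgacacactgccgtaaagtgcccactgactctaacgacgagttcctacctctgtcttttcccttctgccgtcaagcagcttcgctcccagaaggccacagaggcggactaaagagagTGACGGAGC

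The window of Psmb8 held 1 gamma-activated site, TTCCCAGAA, 97 bases before the start, a motif found in 7.02% of the 32851 promoter windows in the table. Psmb5 and Psmb6 each held 1 antioxidant response element, TGACGTCGC and TGACGGAGC, 47 and 9 bases before the start, a motif of 10.2% of all windows. The Psmb9 window held a CCAAT box on the opposite strand, a motif of 33.8% of all windows, and none of the other motifs. Promoter windows were matched for 41 of the 49 members. Among the 36 standard members with a window, 5 held the antioxidant element (13.9%), 3 the interferon-stimulated core (8.33%), 1 the gamma-activated site (2.78%) and 14 the CCAAT box (38.9%). Among the 5 immunoproteasome genes the numbers were 0, 0, 1 and 1. Over all 27025 symbols with a window the shares, in the same order, were 11.5%, 3.46%, 8.13% and 37.5%. With only 5 immunoproteasome genes, these counts cannot show a difference between the forms. A match is a stretch of letters and says nothing of whether a factor binds there.

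Facts about the libraries bear on every level that follows. Il27ra, the targeted gene, was at 25.7, 5.14, 15.2, 14.4 and 15.8 FPKM in WT replicates 1 to 5 and at 4.09, 6.50, 5.62 and 7.80 FPKM in IL27ra KO replicates 1 to 4 (log2 difference -1.10, SE 0.34; limma, adjusted p = 0.0996). The library labelled WT replicate 2 therefore lay inside the IL27ra KO range, and without it the difference was -1.42 (limma, adjusted p = 0.0035). Whether its label is right was not tested, and WT replicate 2 stands below for the library that carries that label. CD8 T cell markers were present in all 9 libraries, with Cd3e at 172 to 298 FPKM in WT and 61.3 to 175 FPKM in IL27ra KO. All 14 tested markers were lower in IL27ra KO (median log2 difference -0.66). Of these, 2 passed as lower, Cd3e and Cd8a, beside 1.11% of all genes (limma, adjusted p under 0.05). Without WT replicate 2 the median was -0.54 and 1 passed, Cd3e. IL27ra KO libraries also held more RNA of macrophages and monocytes. Of 22 tested markers 21 passed as higher, beside 3.13% of all genes (limma, adjusted p under 0.05). Their summed level was 1160 to 2152 FPKM against 339 to 668 FPKM in WT, and none was at 0 in all libraries of a group. The spacing of low values implied 1720000 to 4100000 fragments per library, and 34 to 979 fragments behind a value of the 6 paired catalytic genes, as estimates.

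The library labelled WT replicate 2 also stood apart in the proteasome genes themselves. For the 47 members whose mean FPKM reached 1 or more, it was the highest of the 9 libraries for 41, or 87.2%, compared with 24.7% of the 10374 genes that passed the same filter. Its level was a median of 1.97 times the median of the other 8 libraries over the members, and 0.929 times over all tested genes. The excess followed transcript length. Over all tested genes with an annotated length, the median ratio was 2.04 for transcripts under 1 kb, 1.47 from 1 to 2 kb, 0.882 from 2 to 4 kb and 0.685 over 4 kb. The members are short, 35 of the 47 having a longest annotated transcript under 2 kb. The 7 members under 1 kb had a median ratio of 1.97, slightly below all genes of that length. The medians were 2.11 for the 28 members from 1 to 2 kb, 1.40 for the 10 from 2 to 4 kb and 1.31 for the 2 over 4 kb, above those of all genes of these lengths. Psme2 (3.30 times), Psmb10 (3.25 times) and Psma2 (3.01 times) were the most raised, while Psme3 (0.435 times), Psmd2 (0.798 times) and Psmd1 (0.822 times) were below the median of the other libraries. The part that length plays in the levels of the members was not tested, nor was the quality of the RNA in this library. Values without this library are given beside the results.

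**Figure D1:**
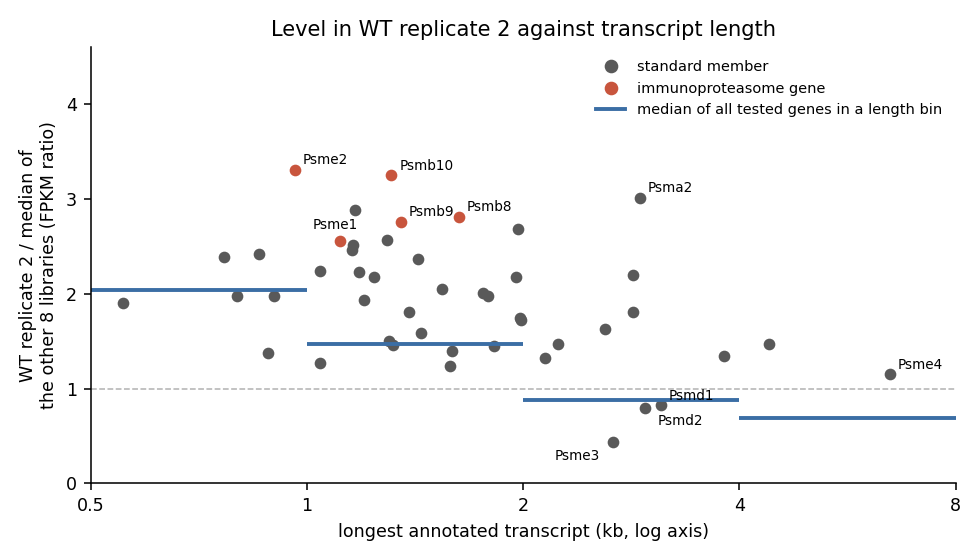
Each point is 1 of the 47 tested members, placed by the length of its longest annotated transcript (kb, log axis) and by its FPKM in WT replicate 2 divided by the median of the other 8 libraries, with immunoproteasome genes in red. Blue lines are medians of all tested genes in 4 length classes, falling from 2.04 to 0.685, and most members over 1 kb, but not most of the 7 under 1 kb, lie above the line of their class.

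No proteasome gene passed the test between IL27ra KO and WT libraries. Differences are given as IL27ra KO minus WT in units of log2(FPKM + 1), where low genes appear to change less than they do. Of the 47 members tested, 0 had an adjusted p under 0.05 (limma, Benjamini-Hochberg over all genes), compared with 4.24% of all 10374 genes tested. The counts stayed at 0 with robust limma and with library weights, and 4 of the 47 members (8.51%) had an unadjusted p under 0.05, compared with 15.1% of all genes. The groups did not overlap for 1 member, Psmd2, compared with 6.73% of all genes. Without WT replicate 2 the count of called members was again 0, beside 4.78% of all genes (3.36% higher, 1.42% lower). The median difference was -0.58 over the 5 immunoproteasome genes, -0.11 over the 42 tested standard members and 0.02 over all genes tested. Without WT replicate 2 these medians were -0.28, 0.08 and 0.02. All 5 immunoproteasome genes were below 0 with and without that library, but 1 of 5 was below 0 when the table was rescaled to CD8 T cell markers and 4 of 5 with a melanoma marker covariate, as described further on. Of the standard members 28 of 42 were below 0, and 15 of 42 without that library.

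**Figure D2:**
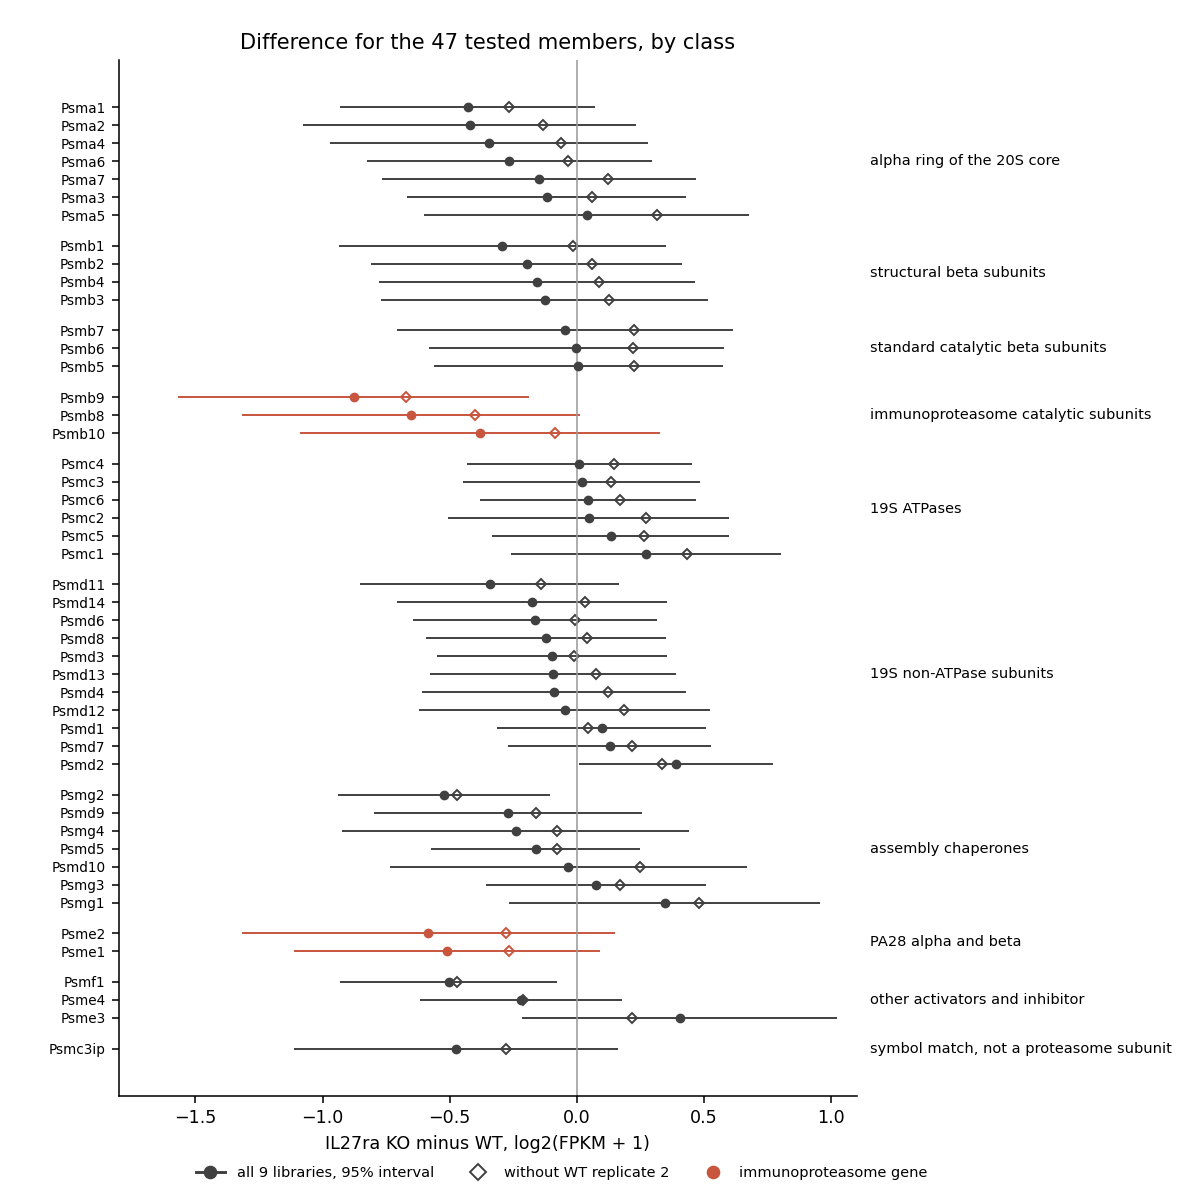
Filled points are the log2 differences of IL27ra KO minus WT for the 47 tested members, with 95% intervals from limma, grouped by class, and open diamonds are the values without WT replicate 2. The immunoproteasome genes, in red, run from -0.88 to -0.38, with Psmb9, Psmb8 and Psme2 furthest to the left of all members, and most diamonds lie to the right of their filled points.

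The catalytic immunoproteasome subunits had the lowest differences as a class, and their levels overlapped between the groups. Psmb9, which encodes the replacement for Psmb6, was at 39.8, 84.1, 34.7, 27.5 and 72.5 FPKM in WT replicates 1 to 5 and at 17.3, 27.2, 25.4 and 33.6 FPKM in IL27ra KO replicates 1 to 4. All but WT replicate 4 among the WT libraries lay above the IL27ra KO range. The difference was -0.88 (SE 0.32; limma, adjusted p = 0.183), and -0.67 without WT replicate 2 (adjusted p = 0.244).
Psmb8, the replacement for Psmb5 and the most abundant of the catalytic genes, was at 105, 253, 95.2, 84.7 and 147 FPKM in WT and at 64.4, 71.6, 76.5 and 114 FPKM in IL27ra KO. IL27ra KO replicates 1 to 3 lay below all WT libraries and replicate 4 lay among them. The difference was -0.65 (SE 0.31; limma, adjusted p = 0.342), and -0.40 without WT replicate 2 (adjusted p = 0.385).
Psmb10, the replacement for Psmb7 and the least abundant, was at 23.4, 55.5, 14.8, 14.8 and 26.7 FPKM in WT and at 15.5, 17.7, 16.4 and 23.8 FPKM in IL27ra KO. These ranges overlapped throughout, and the difference of -0.38 (SE 0.33; limma, adjusted p = 0.660) went to -0.09 without WT replicate 2.

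The genes of the PA28 cap resembled the catalytic genes in size and order of libraries. Psme1 was at 92.5, 203, 75.4, 78.1 and 105 FPKM in WT and at 61.7, 63.2, 80.9 and 85.1 FPKM in IL27ra KO. Psme2 was at 75.0, 203, 66.1, 48.9 and 99.8 FPKM in WT and at 47.8, 52.0, 57.0 and 77.4 FPKM in IL27ra KO. IL27ra KO replicate 4 was the highest of its group for both genes, as it was for Psmb8, Psmb9 and Psmb10. The differences were -0.51 (SE 0.28) for Psme1 and -0.58 (SE 0.34) for Psme2 and did not pass (limma, adjusted p = 0.438 and 0.473), and without WT replicate 2 they were -0.27 and -0.28. In the same IL27ra KO library the summed CD8 T cell markers were at 1395 FPKM, the highest of its group, and the macrophage markers at 1160 FPKM, the lowest, and the part of these cells in the levels was not tested. In bulk libraries fewer cells of a type and less RNA per cell cannot be told apart.

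The standard catalytic subunits did not pass and had differences near 0 in the deposited scaling. Psmb5, which carries the chymotrypsin-like activity, was at 50.4, 96.6, 40.0, 37.7 and 52.1 FPKM in WT and at 47.6, 44.4, 65.0 and 54.5 FPKM in IL27ra KO (log2 difference 0.01, SE 0.26; limma, adjusted p = 0.997). Psmb6, with the caspase-like activity, was at 51.8, 119, 40.8, 55.1 and 72.1 FPKM in WT and at 61.2, 67.2, 64.9 and 58.9 FPKM in IL27ra KO. Psmb7, with the trypsin-like activity, was at 29.5, 83.2, 31.8, 23.8 and 45.8 FPKM in WT and at 34.5, 44.1, 40.2 and 31.8 FPKM in IL27ra KO. The IL27ra KO values of all these genes lay within the WT range, and the differences of Psmb6 and Psmb7 were -0.003 and -0.05 (95% intervals -0.58 to 0.58 and -0.71 to 0.61). Without WT replicate 2 the differences of Psmb5, Psmb6 and Psmb7 were 0.23, 0.22 and 0.22, with adjusted p of 0.567, 0.582 and 0.637.

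**Figure D3:**
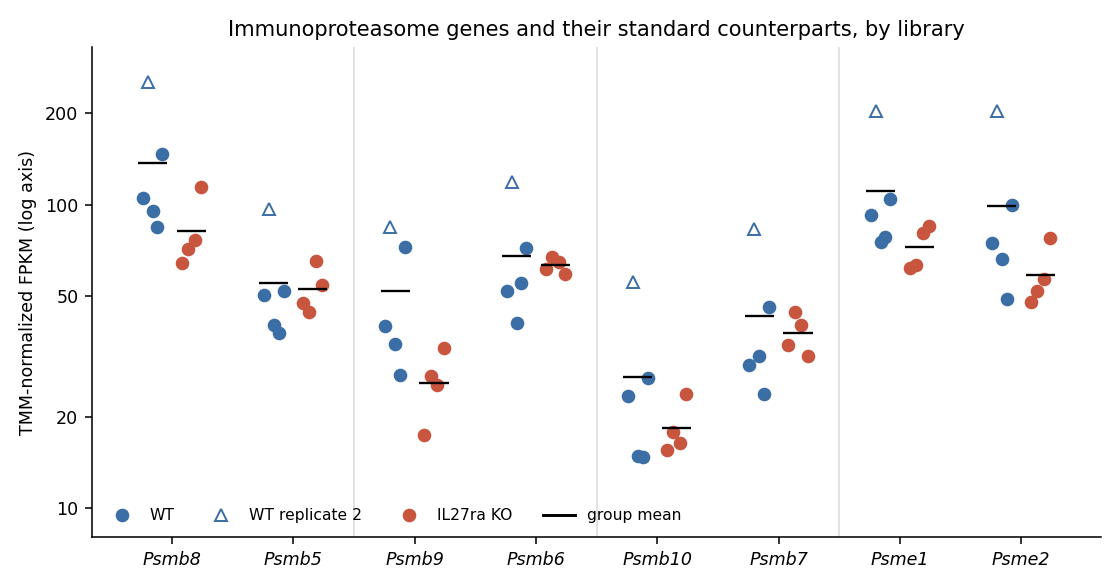
TMM-normalized FPKM (log axis) of each immunoproteasome gene beside its standard counterpart, and of Psme1 and Psme2, in 5 WT (blue) and 4 IL27ra KO (red) libraries, with black lines for group means. The open triangle, WT replicate 2, is the highest library for each gene. IL27ra KO replicates 1 to 3 lie below all WT points for Psmb8 and Psmb9 but not for Psmb5 and Psmb6. IL27ra KO replicate 4 lies among the WT points for Psmb8 and Psmb9.

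Set against its standard counterpart within the same library, the immunoproteasome form was scarcer in IL27ra KO for the pairs Psmb8 with Psmb5 and Psmb9 with Psmb6. The ratio was taken from FPKM + 1 within a library, so that the scaling of the library hardly enters. In WT replicate 2 both genes of a pair were raised over the median of the other libraries, but the immunoproteasome gene more so. The rise was 2.81 times for Psmb8 and 1.97 for Psmb5, 2.76 for Psmb9 and 1.97 for Psmb6, and 3.25 for Psmb10 and 2.51 for Psmb7. Psmb8 made up 67.6%, 72.4%, 70.4%, 69.2% and 73.8% of the FPKM of its pair in WT replicates 1 to 5, and 57.5%, 61.7%, 54.1% and 67.7% in IL27ra KO replicates 1 to 4. WT replicate 1 and IL27ra KO replicate 4 met at nearly the same share, and the remaining libraries were separated by group. The mean share was 70.7% ± 2.46 (SD, n = 5) in WT and 60.3% ± 5.88 (SD, n = 4) in IL27ra KO. On the log2 scale the ratio differed by -0.66 (two-sided exact permutation p = 0.0317, 0.0476 after Benjamini-Hochberg adjustment over the 3 pairs). Psmb9 made up 43.4%, 41.5%, 46.0%, 33.3% and 50.1% of its pair in WT and 22.1%, 28.8%, 28.1% and 36.3% in IL27ra KO. WT replicate 4 and IL27ra KO replicate 4 crossed, and the others were separated. The means were 42.9% ± 6.26 (SD, n = 5) and 28.8% ± 5.83 (SD, n = 4), and the log2 ratio differed by -0.88 (exact permutation p = 0.0317, adjusted 0.0476).

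The pair of Psmb10 and Psmb7 did not pass. Psmb10 made up 44.3%, 40.0%, 31.8%, 38.3% and 36.9% of the pair in WT and 31.0%, 28.7%, 29.0% and 42.8% in IL27ra KO, so that IL27ra KO replicate 4 exceeded all WT libraries but replicate 1. The log2 ratio differed by -0.33 (exact permutation p = 0.190, adjusted 0.190). With 9 libraries the smallest p the test allows is 0.0159. Without WT replicate 2 the differences of the pairs of Psmb8, Psmb9 and Psmb10 were -0.63, -0.89 and -0.31, and none passed (exact permutation, adjusted p = 0.0857, 0.0857 and 0.286). With 1 library left out the smallest p the test allows rises to 0.0286 (4 libraries against 4) or 0.0357 (5 against 3), before adjustment over the pairs. For the pairs of Psmb8 and Psmb9 the unadjusted permutation p was above these floors in most such fits. It was 0.0571 for both without WT replicates 2, 3 or 5, and 0.0714 for both without IL27ra KO replicates 1, 2 or 3. Both calls were lost when any other library except IL27ra KO replicate 4 was left out, at differences of -0.54 to -0.71 for Psmb8 and -0.72 to -1.02 for Psmb9. Without IL27ra KO replicate 4 all 3 pairs passed, at -0.81, -1.04 and -0.53 (exact permutation, adjusted p = 0.0357 each).

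**Figure D4:**
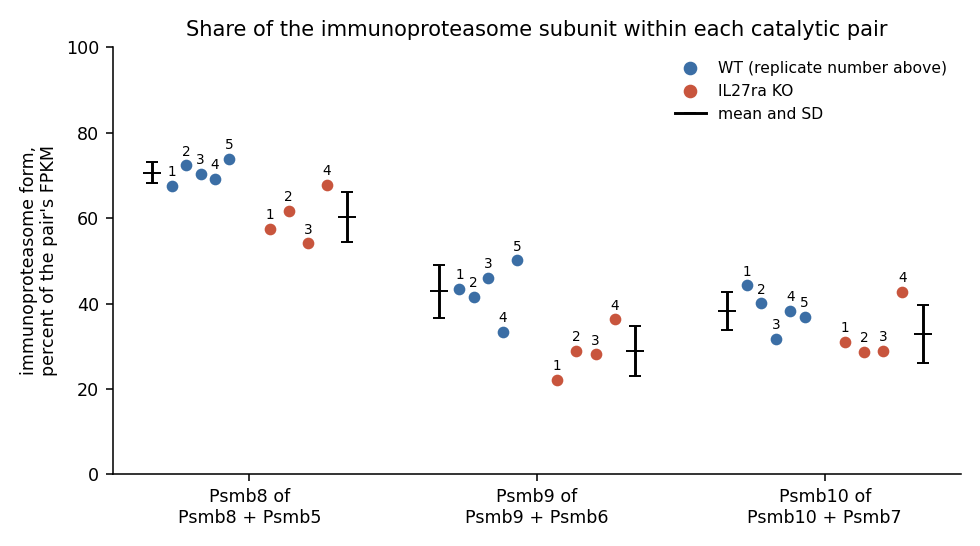
Share of the immunoproteasome subunit in the summed FPKM of its catalytic pair (percent), for each library with its replicate number, and the mean with SD of each group. The Psmb8 share averages 70.7% in WT and 60.3% in IL27ra KO and the Psmb9 share 42.9% and 28.8%, and IL27ra KO replicate 4 is the highest of its group in each pair.

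Markers of other cells differed between the same libraries. The mean log2(FPKM + 1) of the 22 macrophage and monocyte markers was 1.62, 3.17, 1.74, 2.47 and 2.92 in WT replicates 1 to 5 and 5.33, 5.08, 5.52 and 4.06 in IL27ra KO replicates 1 to 4. IL27ra KO replicate 4, with the lowest level of its group, had the highest Psmb8, Psmb9 and Psmb10 shares of its group. Among the WT libraries, replicates 2 and 5 had the highest macrophage levels and the highest Psmb8 shares, but for Psmb9 the highest shares were those of replicates 5 and 3. For the 14 CD8 T cell markers the levels were 6.14, 6.66, 6.16, 6.07 and 6.39 in WT and 5.07, 5.55, 5.36 and 6.40 in IL27ra KO. The 8 tested dendritic cell markers were at 2.24 to 4.78 in WT and 4.83 to 6.22 in IL27ra KO. Of these, Itgax, Cd209a, H2-Ab1, H2-Aa and Cd74 passed as higher, 5 of 8 beside 3.13% of all genes (limma). H2-Eb1 (3.28), Zbtb46 (-0.25) and Ccr7 (0.04) did not pass, and Flt3, Xcr1, Clec9a and Batf3 missed the filter. For the 11 melanoma markers the levels were 4.34 to 6.09 in WT and 5.11 to 6.34 in IL27ra KO, and their summed level was 450 to 1459 FPKM and 716 to 1554 FPKM. The 10 fibroblast and endothelial markers summed to 3.01 to 8.30 FPKM in WT and 5.54 to 10.3 FPKM in IL27ra KO. Most of these sums came from Pecam1, at 2.01 to 6.24 FPKM in WT and 4.56 to 9.57 FPKM in IL27ra KO. The other markers missed the filter, and Lum and Pdgfra were at 0 in all IL27ra KO libraries. The genotype and the levels of the macrophage and dendritic cell lists run together in these libraries, and their parts in the shares cannot be told apart. The melanoma levels overlapped between the groups, and the part of tumour RNA in the shares was not tested.

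**Figure D5:**
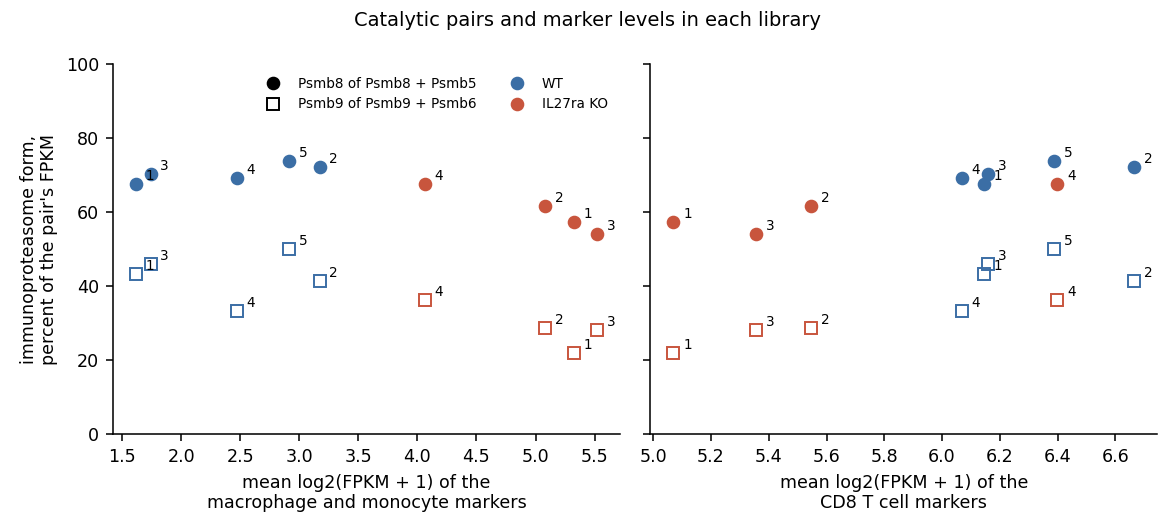
Share of Psmb8 (circles) and Psmb9 (squares) in their catalytic pairs (percent) against the mean log2(FPKM + 1) of macrophage and monocyte markers (left) and of CD8 T cell markers (right) in each library, labelled by replicate. The IL27ra KO libraries (red) lie at 4.06 to 5.52 on the macrophage axis, apart from the WT libraries (blue) at 1.62 to 3.17, and on the CD8 axis IL27ra KO replicate 4 lies among the WT libraries.

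How the members sit against the whole library depended on the scale chosen. Rescaled to the CD8 T cell markers, the median of all genes was 0.60, that of the standard members 0.57 and that of the immunoproteasome genes 0.10. On that scale Psmb8 and Psmb9 stood at 0.03 and -0.21, Psmb5 and Psmb6 at 0.69 and 0.68, and 1 member passed as higher, Psmd2 (1.06; limma, adjusted p = 0.0491). That call was lost on the same scale without WT replicate 2 (0.92, adjusted p = 0.0981), 0 members passed, and the medians of all genes, the standard members and the immunoproteasome genes were 0.53, 0.67 and 0.31. Psmb8, Psmb9, Psmb5 and Psmb6 were then at 0.19, -0.09, 0.81 and 0.81. Rescaled to the alpha ring of the 20S core, a scale within the proteasome, Psmb9 was at -0.64 and Psmb8 at -0.41, without passing (limma, adjusted p = 0.321 and 0.514). In each of 5 rescaled or quantile-normalized versions of the table the median of the immunoproteasome genes minus that of the standard members was -0.48 to -0.45. The rescaled versions divide each library by a single factor, which shifts all genes nearly alike, so that they could hardly move this gap. Quantile normalization, which could, gave -0.45, and the gap was -0.36 without WT replicate 2. With the mean level of the melanoma markers as a covariate the median of the immunoproteasome genes was -0.12, with 4 of 5 below 0, and its gap to the standard members was -0.24. With the macrophage markers as the covariate that median was -1.27, with 5 of 5 below 0, beside -0.86 for the standard members. The macrophage levels do not overlap between the groups (1.62 to 3.17 in WT, 4.06 to 5.52 in IL27ra KO). The differences from that fit are therefore extrapolations, in which genotype and marker level cannot be told apart. With either covariate 0 members passed (limma, smallest adjusted p 0.339 for melanoma and 0.272 for macrophage markers).

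The alpha ring genes shared WT replicate 2 as their highest library. Psma2 had the highest mean of the 7 over all libraries, 96.5 FPKM, and Psma4 the lowest of those tested, 42.5 FPKM. There the levels ran from 98.4 FPKM for Psma4 to 228 FPKM for Psma2. Psma1 had the lowest difference (-0.43, SE 0.23), with 52.2, 102, 55.5, 53.7 and 70.2 FPKM in WT and 57.6, 49.4, 47.01 and 38.5 FPKM in IL27ra KO, and Psma5 the highest (0.04, SE 0.30), and neither passed (limma, adjusted p = 0.433 and 0.974). Psma1 and Psma5 were at -0.27 and 0.31 without WT replicate 2. Psma3, Psma6 and Psma7 lay between them, and 0 of the 7 had an unadjusted p under 0.05. The mean per gene over the class, which counts Psma8, was 47.4 to 125 FPKM in WT and 49.2 to 54.99 FPKM in IL27ra KO. Psma8, the alpha subunit of the testis, was at 0 in 7 libraries and at 0.15 and 0.17 FPKM in IL27ra KO replicates 1 and 2, and was not tested.

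The structural beta subunits, which shape the inner rings without cutting, had differences of -0.29 (Psmb1) to -0.13 (Psmb3), with Psmb2 and Psmb4 between them and an adjusted p of 0.727 or more (limma). Psmb1 was the most abundant proteasome gene over the 9 libraries, with a mean of 119 FPKM, followed by Psmb8 with 112 FPKM, and the ranges of these genes overlapped. It was at 104, 265, 93.7, 83.1 and 124 FPKM in WT and at 87.7, 101, 97.2 and 113 FPKM in IL27ra KO. Psmb2 was the lowest of the class, with 58.0 FPKM. Without WT replicate 2 the 4 differences were -0.01 to 0.13. Psmb11, the beta subunit of thymic cortical epithelium, was at 0.23 to 1.26 FPKM in WT and 0.27 to 0.94 FPKM in IL27ra KO and was not tested.

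The ATPases of the 19S base, which thread substrates into the core, had differences close to 0, with a sign that depended on the setting. All 6 were above 0 in the deposited scaling, but 2 of the 6 were below 0 on the median ratio scale. Without WT replicate 4 the differences below 0 included those of Psmc2, Psmc3 and Psmc6, at -0.10, -0.10 and -0.03. Psmc4 went as low as -0.06, without IL27ra KO replicate 2. Mean levels over the libraries ran from 22.1 FPKM for Psmc2 to 41.7 FPKM for Psmc5. Psmc1 had the highest difference, with 21.1, 42.5, 18.0, 24.9 and 34.95 FPKM in WT and 34.7, 33.5, 35.9 and 27.4 FPKM in IL27ra KO (0.27, SE 0.25; limma, adjusted p = 0.682), and Psmc4 the lowest (0.01). The groups overlapped for each of these genes. Psmc3, Psmc5 and Psmc6 lay between Psmc4 and Psmc1, as did Psmc2. The class median was 0.04, and 0.22 without WT replicate 2.

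Among the 11 non-ATPase subunits of the 19S particle, Psmd2 was the member whose groups did not overlap. It encodes a large scaffold subunit that docks ubiquitin receptors and shuttle factors. It was at 28.5, 23.1, 26.2, 28.1 and 28.8 FPKM in WT and at 37.0, 39.7, 37.1 and 29.0 FPKM in IL27ra KO. IL27ra KO replicate 4 lay just above the highest WT library, and the others were clearly apart. The difference was 0.39 (SE 0.18; limma, adjusted p = 0.319) and 0.34 without WT replicate 2 (adjusted p = 0.264), when the groups again did not overlap, compared with 10.1% of all genes. Psmd11, a subunit of the lid, had the lowest difference of the class (-0.34, SE 0.24; adjusted p = 0.567), which went to -0.14 without WT replicate 2. Psmd14, the deubiquitinase of the lid, was the most abundant at 49.99 FPKM and Psmd3 the least at 19.3 FPKM. The remaining subunits of the class (Psmd1, Psmd4, Psmd6, Psmd7, Psmd8, Psmd12, Psmd13) had differences between those of Psmd11 and Psmd2 and an adjusted p of 0.809 or more.

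The assembly chaperones were expressed at lower levels than the subunits they help to assemble, from 5.38 FPKM for Psmd9 to 11.7 FPKM for Psmg2. Psmg2, which pairs with Psmg1 to start the alpha ring, was at 13.1, 15.8, 15.6, 10.1 and 14.0 FPKM in WT and at 10.8, 10.2, 8.54 and 7.34 FPKM in IL27ra KO. WT replicate 4 was the library that kept the groups from separating. The difference was -0.52 (SE 0.19; limma, adjusted p = 0.191) and -0.47 without WT replicate 2. Its partner Psmg1 had the highest difference of the class, 0.34 (SE 0.28; adjusted p = 0.646) and 0.48 without WT replicate 2, with 8.79, 12.1, 3.48, 6.92 and 11.6 FPKM in WT and 8.41, 11.9, 11.2 and 10.2 FPKM in IL27ra KO. Psmg3, Psmg4, Psmd5, Psmd9 and Psmd10 lay between -0.27 and 0.08, with an adjusted p of 0.679 or more.

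Of the remaining activators and inhibitors, Psme3, the nuclear PA28 gamma, went in the opposite direction to Psme1 and Psme2, without passing. It was at 9.59, 7.23, 13.7, 16.3 and 22.0 FPKM in WT and at 20.8, 21.3, 16.97 and 11.9 FPKM in IL27ra KO (0.40, SE 0.29; limma, adjusted p = 0.581; 0.22 without WT replicate 2). WT replicate 5 was its highest and WT replicate 2 its lowest library. Psmf1, the inhibitor PI31, was at 8.80, 8.70, 8.22, 7.82 and 6.03 FPKM in WT and at 6.94, 5.37, 3.66 and 5.44 FPKM in IL27ra KO. WT replicate 5 fell within the IL27ra KO range and the other WT libraries lay above it (-0.50, SE 0.20; limma, adjusted p = 0.223; -0.47 without WT replicate 2). Psme4, which encodes PA200, was the least abundant tested subunit or cap gene at 3.61 FPKM, and Psmc3ip was at 2.25 to 7.25 FPKM in WT and 1.33 to 3.26 FPKM in IL27ra KO.

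Genes that work with the proteasome but fall outside the symbol rule gave 1 call. Of 19 tested, 1 was higher and 0 were lower in IL27ra KO, beside 3.13% of all genes higher and 1.11% lower. Zfand5, a ubiquitin-binding activator of the proteasome, had a mean of 3.91 ± 0.890 FPKM (SD, n = 5) in WT and rose to 7.32 ± 1.34 FPKM (SD, n = 4), with WT libraries at 3.83, 2.56, 3.71, 4.73 and 4.70 FPKM and IL27ra KO libraries at 8.66, 6.86, 8.10 and 5.65 FPKM. The groups did not overlap (log2 difference 0.77, SE 0.20; limma, adjusted p = 0.0485), and the call was lost without WT replicate 2 (adjusted p = 0.0550) and in 6 other fits that left out 1 library. Akirin2, needed to bring proteasomes into the nucleus, differed by 0.63 (adjusted p = 0.199) and passed without WT replicate 2 (0.80, adjusted p = 0.0386). Pomp, the chaperone of beta ring assembly, and Nfe2l1, the factor that drives proteasome genes when the protease is inhibited, differed by -0.20 and -0.05 (adjusted p = 0.808 and 0.950), and by 0.04 and -0.14 without WT replicate 2, and were chosen for their role.

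The class I peptide supply and the interferon gamma axis, in which immunoproteasome genes are usually placed, gave 0 and 3 calls. Of 12 class I genes, 0 passed in either direction, beside 4.24% of all genes (median -0.29; 2 at an unadjusted p under 0.05; limma). Nlrc5, the transactivator of MHC class I genes, had the smallest p of the list, at 21.7, 12.7, 26.0, 24.2 and 30.1 FPKM in WT and at 9.32, 10.5, 10.5 and 16.5 FPKM in IL27ra KO. WT replicate 2 lay within the IL27ra KO range and the other WT libraries lay above it. The difference was -0.90 (SE 0.25; adjusted p = 0.0655) and passed without WT replicate 2 (-1.08, adjusted p = 0.0060). Tap1, the neighbour of Psmb9, was at 41.4, 42.8, 28.4, 26.2 and 55.8 FPKM in WT and 29.3, 24.2, 23.3 and 34.5 FPKM in IL27ra KO (-0.43, SE 0.24; adjusted p = 0.443; -0.39 without WT replicate 2).

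Of 21 tested genes of the interferon gamma axis, 2 passed as higher and 1 as lower, beside 3.13% and 1.11% of all genes (median -0.06). Ciita, the transactivator of MHC class II, averaged 0.348 ± 0.314 FPKM in the WT libraries (SD, n = 5) and rose to 3.19 ± 2.00 FPKM in IL27ra KO (SD, n = 4). Ifngr2, a chain of the interferon gamma receptor, rose from 7.57 ± 3.37 to 18.1 ± 4.28 FPKM (limma; adjusted p = 0.0196 for Ciita and 0.0454 for Ifngr2). Both passed without WT replicate 2 (Ciita 1.63, adjusted p = 0.0215; Ifngr2 0.95, adjusted p = 0.0283). With each library left out in turn, Ciita passed in 5 of 9 fits and Ifngr2 in 4 of 9, with adjusted p of up to 0.0898 and 0.161. Ciita lost its call without WT replicate 1 or IL27ra KO replicates 1, 2 or 3, and Ifngr2 without WT replicates 3 or 5 or those same IL27ra KO replicates. Ciita and Ifngr2 are also made by myeloid cells, whose markers were raised in the same libraries, and the part of those cells was not tested. Irf8, a transcription factor, fell from 18.7 ± 13.4 to 4.38 ± 2.21 FPKM (adjusted p = 0.0468), and was not past the threshold without WT replicate 2 (adjusted p = 0.0656). With each library left out in turn, Irf8 passed in 2 of 9 fits, with an adjusted p of up to 0.134 (limma). Ifng itself was at 21.8, 61.3, 20.3, 13.8 and 34.97 FPKM in WT and at 10.3, 8.97, 7.5 and 38.9 FPKM in IL27ra KO, so that IL27ra KO replicate 4, the library with the highest immunoproteasome shares of its group, had the highest Ifng of its group as well (-0.98, SE 0.46; adjusted p = 0.341; -0.69 without WT replicate 2). Irf1 differed by -0.06 (adjusted p = 0.948; -0.03 without WT replicate 2), and Ifng and Irf1 were chosen for their role. Of 16 proliferation genes 0 passed, beside 4.24% of all genes, and 0 had an unadjusted p under 0.05, beside 15.1% (limma). A list of 16 genes is too short for these counts to show a difference from all genes. The smallest p was that of Mcm6 (-0.51, adjusted p = 0.405). Mcm6 passed without WT replicate 2 (-0.73, adjusted p = 0.0296). Dropping any other single library gave no call for Mcm6, with an adjusted p of up to 0.733 (limma).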

How the data were processed

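Per the labels, the table holds RSEM gene values as FPKM after TMM scaling by the authors, for 23366 symbols in 9 libraries, and 0 columns belong to other samples. The submitters' processing notes name TopHat, RSEM, DESeq and build mm9, without versions or roles. Read layout and strand setting: not given in the sources used here. RSEM divides fragments among similar genes. The protocol adds no molecular identifiers, so copies made by PCR are counted too.

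From these values, log2(FPKM + 1) was computed. The 10374 symbols whose mean FPKM reached 1 were tested between groups by limma 3.58.1 (R 4.3.3, eBayes with trend), with Benjamini-Hochberg adjustment over all of them and a threshold of 0.05. Ratios within catalytic pairs were tested by exact permutation over the libraries, two-sided, with all 126 assignments. The scripts were checked on simulated data. The members and lists were chosen with earlier results of these data known. The rule for named genes took the immunoproteasome genes and their counterparts, members past the threshold, members that missed the filter, the highest and lowest member of each class by level and by difference, and the leading genes of the other lists. Pomp, Nfe2l1, Ifng, Irf1, Tap1 and the genes named for their level in WT replicate 2 were named outside it.

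Fragments per library were estimated from the spacing of low values in 2765 single-transcript genes with GENCODE M21 lengths. Of these low values 68.3% to 71.8% were within 0.1 of whole multiples, compared with 20% for evenly spread values. The alternatives were other pseudocounts, filters, scalings and fits, marker covariates, a replicate block, and each library left out.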

Additional observations from a re-analysis of the deposited data

Results flagged for a closer look

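In 17 of 102 groups of libraries tested, the highest or lowest library lay further from the others than Dixon's 95% critical value. Chance gives such a gap in about 1 in 20 independent groups. These groups share the same 9 libraries and are not independent, so that 17 of 102 cannot be set against that rate. In 14 of the 17 the library was WT replicate 2, the highest of its group. Its FPKM was 228 for Psma2, 98.4 for Psma4, 151 for Psma6, 184 for Psma7, 265 for Psmb1, 120.1 for Psmb2 and 96.6 for Psmb5. For the 19S and cap genes it was 40.0 for Psmc2, 51.5 for Psmc4, 61.1 for Psmd11, 48.3 for Psmd12, 64.4 for Psmd4, 77.4 for Psmd8 and 203 for Psme1. In the IL27ra KO group, replicate 3 was highest for Psma4 (36.3 FPKM, the next being 34.3), replicate 4 lowest for Psmc2 (19.9 FPKM, the next being 22.1) and replicate 4 highest for Psmg4 (11.7 FPKM, the next being 8.72). For Psma4 and Psmc2 these gaps are small and stand out only because the other libraries lie close together.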

How the results depend on the processing

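No member passed under the alternatives tried, except Psmd2 on the CD8 T cell marker scale, which gave 1 called member and 1 called standard member (1.06; limma, adjusted p = 0.0491), and 0 without WT replicate 2. The count of all genes called, 440 (325 higher, 115 lower), became 219 with a filter at a mean of 5 FPKM, 1089 (1038 higher, 51 lower) on the CD8 T cell scale, 974 with library weights, 6 with a macrophage marker covariate and 234 with a melanoma marker covariate. It was 590 (525 higher, 65 lower) when rescaled to the same total and 457 (301 higher, 156 lower) with quantile normalization. It was 226 to 632 with 1 library left out, and left the range of 1.5 times the main count only without IL27ra KO replicates 1 (242), 2 (268) or 3 (226).

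Over the fits that left out 1 library, the log2 ratio differed by -0.81 to -0.54 for Psmb8 and Psmb5, -1.04 to -0.72 for Psmb9 and Psmb6 and -0.53 to -0.25 for Psmb10 and Psmb7, and each pair passed only without IL27ra KO replicate 4. Leaving out WT replicate 2 and IL27ra KO replicate 4 together, chosen after seeing the data, gave -0.78 and -1.06 for the first pairs, without passing (exact permutation, adjusted p = 0.0571 each), 868 genes called and -1.53 for Il27ra. Il27ra was at -1.42 with library weights, -1.42 to -0.88 with 1 library left out, -1.43 without WT replicate 2 on the alpha ring scale, and 0.66 with the macrophage covariate (adjusted p = 0.684), where Ciita was at -0.41. In the macrophage covariate fit the marker levels do not overlap between the groups, so that genotype and marker level cannot be told apart. The cause of the other shifts was not tested.

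Same-numbered WT and IL27ra KO libraries did not deviate together (r over genes -0.15 to 0.003), so the numbers were not taken as pairs. A fit with the replicate number as a block, to which WT replicate 5 adds nothing because it has no partner, called 273 genes, 268 of them among the 440, and 0 members, with an immunoproteasome median of -0.53.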
